A study of Mus musculus with 9 samples.

Results

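Immediate early and AP-1 genes are described here in 3 mouse tumour lines grown in culture: Egr1, Nr4a3, Fosl1, Fosl2, Jun, Junb, Jund, Atf3, Dusp5 and Ier2, which are 10 of the 11046 genes in the deposited count table. They were picked by name, after an earlier look at the same counts had shown that their levels differed between the lines, so their levels and differences are given as a description with no test. All 10 were in the table and passed the filter on low counts. RNA was poly(A)-selected and sequenced from stranded TruSeq libraries. There were 3 libraries (A, B and C) per line. The labels do not say whether these were separate cultures, so every SD, SE and adjusted p measures the spread between libraries, which may be technical.

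The line 482N1 is labelled a lung non-small-cell carcinoma, B16F10-BrM a BRAF-mutant melanoma and E0771-BrM a triple-negative breast carcinoma, and BrM stands for brain metastatic. The genotype of each is given as wild type, and no line was treated. The medium was DMEM for 482N1 and for B16F10-BrM but RPMI with HEPES for E0771-BrM, in each case with fetal bovine serum, antibiotics and amphotericin B. The line and the medium therefore cannot be told apart wherever E0771-BrM is compared. The series title names the electrical effects of brain metastases, and these libraries hold tumour cells from culture only.

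Immediate early genes are switched on within minutes of a stimulus such as serum, a growth factor or stress, without new protein synthesis. Signals through the kinase ERK reach serum response factor (SRF) and its partners at a promoter sequence called the CArG box, while signals through cyclic AMP reach CREB at the sequence TGACG or its palindrome. AP-1 is a dimer of basic leucine zipper (bZIP) proteins: Jun, Junb or Jund pairs with a Fos-type protein such as Fosl1 or Fosl2, or with an ATF-type protein such as Atf3. Dual-specificity phosphatases such as Dusp5 switch ERK off again. AP-1 is known in tumour cells for driving genes of growth, invasion and inflammation.

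RefSeq promoters, from 250 bases before to 50 bases after the gene's start in build GRCm38.p6, were used for 7 of the 10 genes. They are not from GRCm39, the build of the deposited counts, and serve only as sequence. Those of Egr1, Fosl1 and Ier2 were left out, and nothing is said of their motifs. The 4 below are shown as examples: Dusp5 for its pair of CArG boxes, Nr4a3 for its repeated TGACG, Jun for TGACNTCA, and Atf3 for a TGACG close to the start. Capitals mark those letters. In Dusp5 (chr19:53528895-53529194, plus strand) they mark 2 CArG boxes side by side, and in Nr4a3 (chr4:48045055-48045354, plus strand) each TGACG or its reverse complement. In Jun (chr4:95052173-95052472, minus strand) they mark TGACNTCA, and in Atf3 (chr1:191183284-191183583, minus strand) the reverse complement of TGACG. Every sequence reads 5′ to 3′ on the gene's strand.
Dusp5: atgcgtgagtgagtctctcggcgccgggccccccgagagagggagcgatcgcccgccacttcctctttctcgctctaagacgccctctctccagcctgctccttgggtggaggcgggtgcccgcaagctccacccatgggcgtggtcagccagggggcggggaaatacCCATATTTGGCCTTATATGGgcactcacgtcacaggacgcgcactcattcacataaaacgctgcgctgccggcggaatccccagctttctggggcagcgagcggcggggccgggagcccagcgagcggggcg
Nr4a3: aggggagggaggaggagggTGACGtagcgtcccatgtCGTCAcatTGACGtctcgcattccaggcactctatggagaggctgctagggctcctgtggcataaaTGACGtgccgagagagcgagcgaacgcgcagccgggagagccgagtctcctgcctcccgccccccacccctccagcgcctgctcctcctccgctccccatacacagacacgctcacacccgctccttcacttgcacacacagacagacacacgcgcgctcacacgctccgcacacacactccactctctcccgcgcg
Jun: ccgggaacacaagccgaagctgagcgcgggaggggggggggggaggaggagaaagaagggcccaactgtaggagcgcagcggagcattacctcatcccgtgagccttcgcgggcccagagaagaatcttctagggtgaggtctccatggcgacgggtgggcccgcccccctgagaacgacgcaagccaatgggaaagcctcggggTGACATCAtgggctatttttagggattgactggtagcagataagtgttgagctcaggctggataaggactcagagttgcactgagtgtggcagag
Atf3: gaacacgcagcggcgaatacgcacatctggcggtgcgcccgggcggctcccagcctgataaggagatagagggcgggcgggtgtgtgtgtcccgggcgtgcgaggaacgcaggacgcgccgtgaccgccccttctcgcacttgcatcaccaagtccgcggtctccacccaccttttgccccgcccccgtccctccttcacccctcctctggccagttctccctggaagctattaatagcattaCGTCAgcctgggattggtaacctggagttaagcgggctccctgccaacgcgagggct

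The CArG box was searched as CC, then 6 bases that are each A or T, then GG. It was found at positions -82 and -72 from the start of Dusp5. Of 32851 mouse promoters of the same length, 1.63% held a CArG box and 6 held at least 2 (0.0183%). TGACG was found 4 times in the Nr4a3 promoter, at -231, -213, -205 and -147, and 0.231% of promoters held 4 or more. TGACNTCA, the variant bound by Jun and ATF dimers, was at -45 in the Jun promoter, as in 8.83% of promoters. TGACG stood at -7 in Atf3, at -106 in Junb and at -55 in Dusp5, and 20.8% of promoters held it. GCGGGGGCG, the sequence bound by Egr1, stood at -79 in Fosl2 and in 2.91% of promoters. No match to TGANTCA (7.81% of promoters), a pattern wider than the classical AP-1 site, was in these 7 windows, and the Jund window held none of the motifs. Both strands were searched, and TGACG can overlap TGACNTCA. A match describes the letters in this window and is no evidence of binding.

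Levels are CPM (the usual per-library scaling of counts), adjusted by the trimmed mean of M-values (TMM), with the SD of 3 libraries. Differences are log2 fold changes from an edgeR quasi-likelihood fit to all 9 libraries. The SE given with them is the absolute log2 fold change divided by the square root of the test's F statistic. Where a line had few counts, this SE can fall below counting error. Library totals ran from 7332390 to 9293348 counts. For a gene with no count in a line, "at least" marks a bound that puts 3 counts, summed over its libraries, in place of 0. Such floors and intervals cover counting error only. In bulk RNA, fewer cells that express a gene and less RNA per cell cannot be told apart.

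The labels of the lines were checked against marker genes in the table. Of 11 melanocyte markers 5 were in it, with a summed level of 24600 to 25500 CPM in B16F10-BrM, 2.77 to 28.1 in 482N1 and 103 to 162 in E0771-BrM. Among these 5, Gpnmb and Mitf were higher in E0771-BrM than in 482N1 (edgeR adjusted p below 0.05), and 3 did not pass. Of 10 epithelial markers the keratins Krt8 and Krt18 were in it, at 7290 to 7910 CPM together in 482N1, 171 to 208 in E0771-BrM and 0 to 0.125 in B16F10-BrM. The 1 lung marker of 9 that was measured, Abca3, was at 21.2 to 23.9 CPM in 482N1, 8.75 to 13.5 in B16F10-BrM and 0 to 0.240 in E0771-BrM. Of 9 mammary markers, Gata3 and Erbb2 together were lower in the breast line (6.34 to 8.23 CPM) than in 482N1 (22.2 to 30.3 CPM). Fibroblast markers (2 of 8 in the table) summed to at most 2.66 CPM. Immune and endothelial markers (Cd14, Cd68 and Flt1, 3 of 11) summed to 121 to 126 CPM in 482N1, 28.8 to 33.9 in E0771-BrM and 0.583 to 0.627 in B16F10-BrM. The 3 genes did not share this order: Cd14 and Flt1 were lower in E0771-BrM than in 482N1, but Cd68 was higher. The part of these markers in the results was not tested. The ribosomal RNA gene Rn18s took 11.6% to 13.1% of counts in 482N1 and 6.40% to 8.36% in the other lines.

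Egr1, a zinc finger factor that serum and growth factors induce through SRF, was detected in 482N1 alone. Its counts there were 730, 836 and 772 in libraries A, B and C, and 0 in all 6 libraries of B16F10-BrM and E0771-BrM. The 482N1 level was 94.2, 101 and 97.9 CPM (97.5 ± 3.24, SD, n = 3). The level was at least 850-fold lower in B16F10-BrM and at least 788-fold lower in E0771-BrM. In the table, 5 of 11046 genes were at 0 in all 6 of those libraries, and Egr1 had the highest 482N1 level of the 5, ahead of the predicted gene Gm44220 at 16.3 CPM. Nothing is read from this rank, because Egr1 was chosen for differing between lines. How genes were selected for the deposited counts is also not given. In B16F10-BrM 204 genes had no count in any library, and in E0771-BrM 92.

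Nr4a3, an orphan nuclear receptor that is induced by cyclic AMP and by calcium, had the opposite order. It had 326, 310 and 274 counts in B16F10-BrM, 12, 18 and 12 in E0771-BrM and 0 in every 482N1 library. The levels were 34.0, 38.9 and 31.9 CPM in B16F10-BrM (34.9 ± 3.58, SD, n = 3) and 1.52, 2.16 and 1.496 CPM in E0771-BrM (1.73 ± 0.376, SD, n = 3). It is the 1 gene of the 10 that was highest in the melanoma line. Its level was at least 279-fold higher there than in 482N1 and 20.2-fold higher than in E0771-BrM (log2 difference of E0771-BrM from B16F10-BrM -4.32 ± 0.21, SE). The low E0771-BrM level was still at least 13.8-fold above that of 482N1.

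Melanocyte transcripts were also counted in the other lines, and those of Dct unevenly between libraries. In E0771-BrM the summed markers were at 162, 103 and 137 CPM in libraries A, B and C, so library B held markers other than Dct. Dct, a pigment enzyme, had 142, 14 and 148 counts in 482N1 and 353, 29 and 263 in E0771-BrM, against 140918 to 164357 in B16F10-BrM. In E0771-BrM, Nr4a3 was highest in library B, where Dct was lowest. Whether the Dct counts in these lines came from melanoma libraries was not tested, nor was their part in the Nr4a3 counts.

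Relatives of both genes were measured in all 3 lines. Of 8 further EGR and NR4A factors and corepressors on the list, 4 were in the table, and the others, with Egr2, Egr3 and Egr4, are not analysed here. Nr4a1, an orphan receptor of the same family, had 5.80 ± 0.300 CPM in 482N1, 2.76 ± 0.237 in B16F10-BrM, and for E0771-BrM 0.672 ± 0.747 (SD, n = 3 each). It was lower in B16F10-BrM than in 482N1 (log2 -1.07 ± 0.30, edgeR adjusted p = 0.00136). Nr4a2 was higher in B16F10-BrM than in 482N1, at 20.8 ± 3.16 against 15.1 ± 1.83 CPM (SD, n = 3 each; log2 0.46 ± 0.15, edgeR adjusted p = 0.00559), and had 8.12 ± 0.558 CPM in E0771-BrM. Nab2, a corepressor of EGR factors that Egr1 is known to induce, was lower in B16F10-BrM than in 482N1 (log2 -1.11 ± 0.19, edgeR adjusted p = 1.17e-06). In E0771-BrM, where Egr1 had no count, Nab2 was at 14.0 ± 1.72 CPM against 11.8 ± 0.340 in 482N1 (SD, n = 3 each), and that difference did not pass the test (log2 0.25 ± 0.17, edgeR adjusted p = 0.176). Its relative Nab1 was at 67.6 CPM in 482N1, 68.4 in B16F10-BrM, and for E0771-BrM 58.5.

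**Figure D1:**
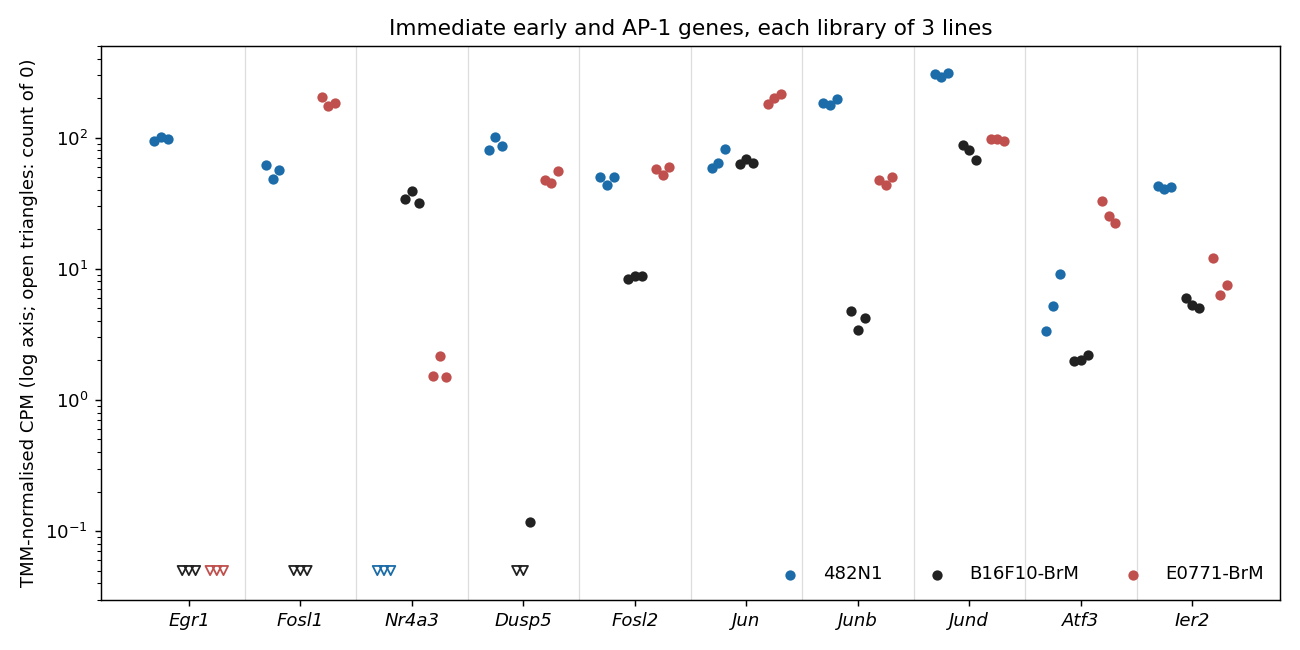
Level of the 10 genes in each of 9 libraries, in TMM-normalised CPM on a log axis, with 1 point per library and the colour giving the line; open triangles mark a count of 0. Egr1 was detected in 482N1 alone, Fosl1 and Dusp5 were at 0 or 1 count in B16F10-BrM, Nr4a3 was highest in B16F10-BrM, and Jun overlapped between 482N1 and B16F10-BrM.

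Fosl1 (Fra-1), a Fos-type AP-1 subunit that lies downstream of ERK and is known from invasive carcinoma cells, was abundant in both carcinoma lines and undetected in the melanoma line. It had 482, 400 and 446 counts in 482N1, 1596, 1454 and 1466 in E0771-BrM and 0 in each B16F10-BrM library. The levels were 62.2, 48.1 and 56.5 CPM in 482N1 (55.6 ± 7.06, SD, n = 3) and 203, 174 and 183 CPM in E0771-BrM (187 ± 14.4, SD, n = 3). The carcinoma lines did not overlap, and E0771-BrM was 3.36-fold higher (log2 1.75 ± 0.09). Against B16F10-BrM, Fosl1 was at least 485-fold higher in 482N1 and at least 1630-fold higher in E0771-BrM. Fosl1 shares 1163 exon bases with Ccdc85b on the other strand, and the sources used here do not give the strand setting of the counting. Ccdc85b had 264 to 310 counts in 482N1 and 128 to 156 in E0771-BrM, where Fosl1 was counted, and 39 to 44 in B16F10-BrM, where Fosl1 had 0. How many Fosl1 counts came from the shared bases was not tested.

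Fosl2 (Fra-2), its closest relative, was present in all 3 lines at closer levels. It measured 50.4, 43.2 and 50.4 CPM in 482N1, 58.1, 52.3 and 59.5 in E0771-BrM and 8.33, 8.78 and 8.74 in B16F10-BrM. The carcinoma lines differed little and did not overlap (log2 0.24 ± 0.10). B16F10-BrM was 5.57-fold below 482N1 (log2 -2.48 ± 0.13) and 6.57-fold below E0771-BrM (log2 difference of E0771-BrM from it 2.72 ± 0.13). The melanoma line thus kept Fosl2 at 8.62 ± 0.247 CPM (SD, n = 3) with no count of Fosl1. Fosb, a further Fos-type subunit, had 55, 40 and 43 counts in 482N1, 28, 17 and 29 in E0771-BrM and 0 in each B16F10-BrM library, and was at least 50.4-fold lower in B16F10-BrM than in 482N1 (edgeR adjusted p = 2.90e-14). Fos is not analysed here.

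The 3 Jun genes, which supply the obligate partners of the Fos-type subunits, shared no single order of lines: Junb and Jund were highest in 482N1 and lowest in B16F10-BrM, and Jun was highest in E0771-BrM. Jun, the most strongly transactivating of them, measured 59.1, 63.8 and 81.6 CPM in 482N1 and 63.0, 68.4 and 64.4 in B16F10-BrM, and these lines overlapped. Their difference was -0.06 ± 0.10 on the log2 scale and ran from -0.16 to 0.09 over the alternatives tried. In E0771-BrM Jun was at 182, 201 and 215 CPM, above every other library, 2.92-fold over 482N1 (log2 1.55 ± 0.09) and 3.05-fold over B16F10-BrM (log2 1.61 ± 0.09). Junb, which can oppose Jun at some promoters, measured 184, 177 and 196 CPM in 482N1, 47.7, 43.2 and 49.9 in E0771-BrM and 4.79, 3.39 and 4.19 in B16F10-BrM. It spanned the lines most widely of the Jun genes: B16F10-BrM was 45.1-fold below 482N1 (log2 -5.48 ± 0.12) and E0771-BrM 3.96-fold below 482N1 (log2 -1.99 ± 0.09). Jund, the member expressed constitutively in most tissues, measured 305, 292 and 313 CPM in 482N1, 87.4, 79.9 and 67.6 in B16F10-BrM and 97.3, 97.1 and 94.4 in E0771-BrM. It was 3.87-fold lower in B16F10-BrM than in 482N1 (log2 -1.95 ± 0.08), and E0771-BrM lay above B16F10-BrM by 0.30 ± 0.08 on the log2 scale, with no overlap.

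Jun, Junb, Jund and Ier2 are single-exon genes. In the GENCODE M21 annotation of GRCm38, Jund shares 877 exon bases with Gm11175 and Dusp5 shares 547 with AC137853.2, both on the other strand and not in the table, so their counts are uncertain to that extent. Prdx2 overlaps Junb with 0 shared exon bases. It had 1924 to 2184 counts in B16F10-BrM, where Junb had 27 to 46, and 2131 to 2258 in 482N1, where Junb had 1429 to 1548.

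To compare the AP-1 genes with each other, CPM was divided by exon length in kilobases, and each gene was expressed as its share of the sum over Jun, Junb, Jund, Fosl1, Fosl2 and Atf3. In 482N1 the sum was made of Jund (52.6% ± 0.949) and Junb (29.7% ± 0.216) for the most part, with Fosl1 at 8.62% ± 0.918 and Jun at 6.17% ± 0.840 (SD, n = 3). In B16F10-BrM Jund (65.1% ± 3.05) and Jun (28.6% ± 2.66) led, and Junb had 3.18% ± 0.548. In E0771-BrM Fosl1 had the greatest share (37.4% ± 1.88), followed by Jun (23.4% ± 2.33) and Jund (21.6% ± 0.802). Fosl2 stayed between 1.84% and 3.24% in all lines, and Atf3 between 0.783% and 4.67%.

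Within the Jun genes alone, Jun supplied 6.97% of the per-length level in 482N1, 29.5% in B16F10-BrM, and for E0771-BrM 42.7%. Junb supplied 33.6%, 3.28% and 17.8% in the same order, and Jund 59.4%, 67.2% and 39.5%. The summed level of the 3 Jun genes was 306 ± 14.5 CPM per kb in 482N1, 69.7 ± 6.03 in B16F10-BrM, and for E0771-BrM 146 ± 5.01 (SD, n = 3). Jun thus had nearly the same level in 482N1 and B16F10-BrM, 21.4 ± 3.73 and 20.5 ± 0.870 CPM per kb, within sums that differed beyond the spread of libraries. The AP-1 sum leaves out Fosb. Fosl1 and Jund share 1163 and 877 exon bases with genes on the other strand, so their levels per length are uncertain to that extent. The shares rest on transcripts counted, not protein, and on exon lengths of GRCm38. With the longest transcript in place of all exons, the length of 1 of these genes (Atf3) changed, and its share in E0771-BrM was 5.04%.

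**Figure D2:**
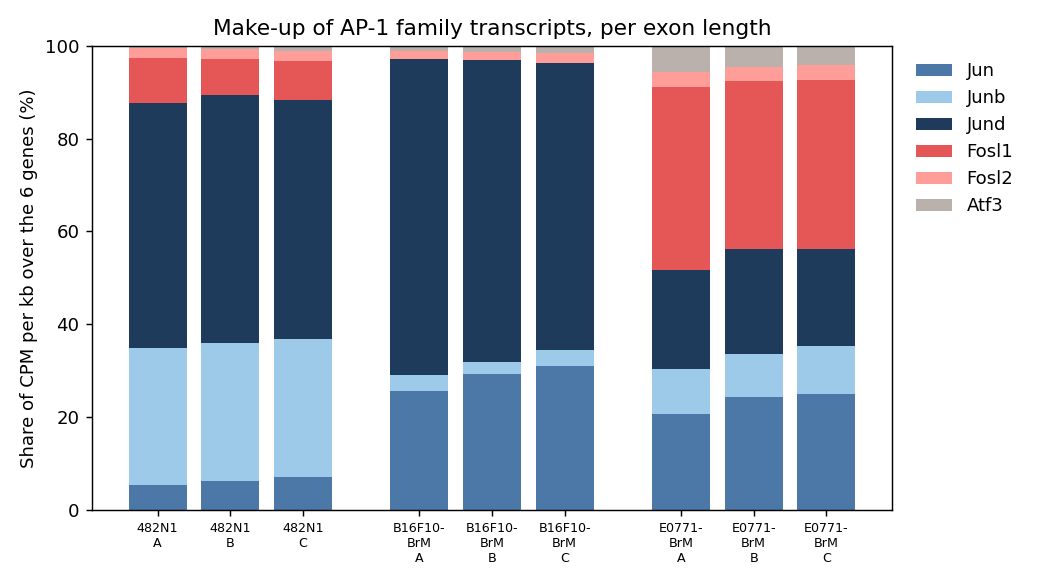
Share of Jun, Junb, Jund, Fosl1, Fosl2 and Atf3 in their summed level (%, CPM per kilobase of exon), as 1 stacked bar for each library of the 3 lines. Jund and Junb filled most of each 482N1 bar, Jund and Jun most of each B16F10-BrM bar, and Fosl1 had 36.2% to 39.6% of each E0771-BrM bar.

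Atf3, a stress-induced bZIP factor of the ATF family, was low in 482N1 and B16F10-BrM and higher in E0771-BrM. It had 26, 43 and 72 counts in 482N1, 19, 16 and 19 in B16F10-BrM and 261, 210 and 180 in E0771-BrM. These were 3.35, 5.18 and 9.13 CPM in 482N1 (5.88 ± 2.95, SD, n = 3), 1.98, 2.01 and 2.21 in B16F10-BrM and 33.1, 25.2 and 22.4 in E0771-BrM (26.9 ± 5.54, SD, n = 3). The lines did not overlap, and E0771-BrM was 4.57-fold over 482N1 (log2 2.19 ± 0.22). B16F10-BrM lay 2.85-fold below 482N1 (log2 -1.5 ± 0.31), a difference that library C of 482N1 raised: without it the log2 value was -1.05, and that of E0771-BrM from 482N1 was 2.65.

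Dusp5, a nuclear phosphatase that inactivates ERK and is itself an ERK target, followed Fosl1 in being nearly undetected in the melanoma line. It had 629, 847 and 676 counts in 482N1, 376, 376 and 443 in E0771-BrM and 0, 0 and 1 in B16F10-BrM. The levels were 81.1, 102 and 85.7 CPM in 482N1 (89.6 ± 10.9, SD, n = 3) and 47.7, 45.1 and 55.2 in E0771-BrM (49.4 ± 5.26, SD, n = 3), without overlap. In contrast to Fosl1, Dusp5 was lower in E0771-BrM than in 482N1, by 1.82-fold (log2 -0.86 ± 0.10). Against the 1 count in B16F10-BrM the ratio was 2350 in 482N1 (95% exact counting interval 421 to 92900) and 1290 in E0771-BrM (231 to 51000). Without library C of B16F10-BrM, which held that count, the folds were at least 524 and at least 289.

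Ier2, a single-exon immediate early gene for a nuclear protein, was highest in 482N1 and low in both brain-metastatic lines. It measured 43.1, 40.3 and 41.8 CPM in 482N1, 5.94, 5.27 and 5.01 in B16F10-BrM and 12.2, 6.36 and 7.48 in E0771-BrM. Against 482N1 it was 7.72-fold lower in B16F10-BrM (log2 -2.94 ± 0.17) and 4.81-fold lower in E0771-BrM (log2 -2.27 ± 0.16). E0771-BrM lay above B16F10-BrM without overlap (log2 0.67 ± 0.20), and without library A of E0771-BrM that difference was 0.35.

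Libraries of 2 lines were also compared for overlap. For B16F10-BrM and 482N1 they did not overlap for 9 of the 10 genes, with Jun the exception, against 78.7% of all 11037 genes tested. For E0771-BrM and 482N1 none of the 10 overlapped, against 78.5% of all genes, and for E0771-BrM and B16F10-BrM 9 did not, with Egr1 at 0 in both, against 75.5%. Nothing is read from these counts, because the 10 genes were chosen for differing. The leading order was thus 482N1 highest for Egr1, Dusp5, Junb, Jund and Ier2, E0771-BrM highest for Fosl1, Fosl2, Jun and Atf3, and B16F10-BrM highest for Nr4a3. The bounds depend on the number of libraries at 0: they fell to at least 538 for Egr1 and 307 for Fosl1 without library A of B16F10-BrM (482N1 against B16F10-BrM), to at least 1030 for Fosl1 in E0771-BrM without the same library, to at least 517 for Egr1 without library B of E0771-BrM, and to at least 182 (B16F10-BrM) and 9.00 (E0771-BrM) for Nr4a3 without library B of 482N1.

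Spread between libraries within a line was not used to choose the genes. It was taken as the biological coefficient of variation that edgeR estimates for each gene, beside the 200 genes nearest in mean level. Of the 10 genes, Atf3 had the widest spread, 0.149, above 99.0% of its neighbours, whose median was 0.105. Jun (0.0730) exceeded 92.5%, Dusp5 (0.0798) 88.5% and Ier2 (0.0965) 84.5% of their neighbours. Egr1 was among the steadier, with 0.0762 and 26% of neighbours below it, and Junb (0.0666) and Fosl2 (0.0750) lay above 35.5% and 36.5%. In all, 6 of the 10 lay above the middle of their neighbours, as did 24 of 41 other immediate early genes. The median was 0.0756 over the 10 genes, 0.0844 over the 41 and 0.0847 over all genes.

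Atf3 varied in both directions within 482N1, at -0.66 log2 units from the line's mean in library A, -0.07 in B and 0.72 in C. In E0771-BrM it was at 0.32 in library A and -0.24 in C. In library C of 482N1 Jun was 0.27 above the line's mean and Ier2 0.0035. In that library Ddit3 (CHOP), a stress-induced bZIP partner of ATF factors, had 964 counts against 348 in A and 308 in B. Gadd45b, a growth arrest and stress gene, had 231 against 121 and 136, Csrnp1 73 against 31 and 30, and Per1, a clock gene that is also induced by cyclic AMP, 135 against 54 and 69. These 4 genes were singled out after their values were seen. In library C of 482N1, 8 of 9 of the genes described here with a mean of at least 10 counts were above the line's mean, at a median of 0.05 log2 units, and in library B 2 of 9. Of 40 other immediate early genes with a mean of at least 10 counts in that line, 24 were above the line's mean in library C, at a median of 0.03 log2 units. In E0771-BrM, library B was below the line's mean in 6 of 9 of the genes, at a median of -0.09 log2 units, and 7 of 38 other immediate early genes were above it, at a median of -0.11. The median of all genes in that library was 0.00056. The cause of these library differences was not tested.

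**Figure D3:**
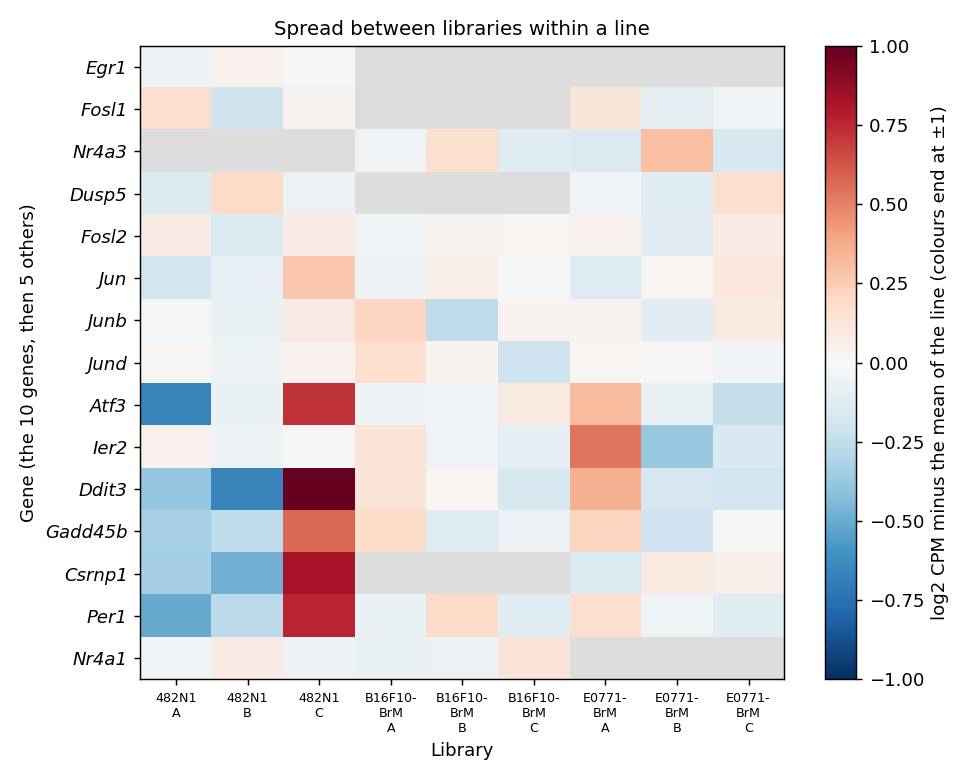
Deviation of each library from the mean of its line (log2 CPM, colours from blue for -1 to red for 1) for the 10 genes and for Ddit3, Gadd45b, Csrnp1, Per1 and Nr4a1, shown after their values were seen; grey cells had a mean under 10 counts in that line. Library A of 482N1 was low for Atf3, and library C was high for Atf3, Ddit3, Gadd45b, Csrnp1 and Per1 and close to its line's mean for Egr1, Ier2 and Nr4a1.

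Other immediate early genes are described by the number called, which means an edgeR quasi-likelihood adjusted p below 0.05 over 11037 genes, beside the share called among all genes. The lines differ widely: 77.8% of genes were called between B16F10-BrM and 482N1 (38.0% higher, 39.9% lower), 78.1% between E0771-BrM and 482N1 (37.7% and 40.4%) and 73.7% between E0771-BrM and B16F10-BrM (37.2% and 36.5%). A list is therefore described by its direction, and not by how many were called. The lists share some genes, and comparisons share lines. Of 49 other immediate early genes on the list, 41 were in the table. In B16F10-BrM against 482N1, 35 were lower, 3 higher and 3 not called, with a median log2 difference of -2.41, against -0.04 over all genes. Between E0771-BrM and 482N1, 29 were lower and 10 higher (median -0.55, all genes -0.04). In E0771-BrM against B16F10-BrM, 33 were higher and 7 lower (median 2.05, all genes 0.02).

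Some of the genes with the largest differences are given here. Ccn2, a secreted matrix protein induced through SRF and YAP, had 162 ± 4.52 CPM in 482N1, 1.17 ± 0.507 in B16F10-BrM, and for E0771-BrM 0.372 ± 0.217 (SD, n = 3 each). It was lower than in 482N1 in both B16F10-BrM (log2 -7.08 ± 0.16, edgeR adjusted p = 1.45e-37) and E0771-BrM (log2 -8.71 ± 0.19, edgeR adjusted p = 9.78e-38). Ccn2 had 31 counts in all in B16F10-BrM and 9 in E0771-BrM, so these SE values are too small to cover counting error. Ptgs2 (COX-2), the inducible prostaglandin synthase, had 108 to 119 counts in 482N1, 23 to 38 in E0771-BrM and 0 in B16F10-BrM, where it was at least 123-fold below 482N1 (edgeR adjusted p = 1.13e-20). Sgk1, a serum- and glucocorticoid-induced kinase, was highest in E0771-BrM (91.9 ± 8.16 CPM), above 482N1 (19.7 ± 2.24; log2 2.22 ± 0.12, edgeR adjusted p = 1.46e-22) and B16F10-BrM (3.88 ± 0.986). Plk3, a stress-responsive kinase, was also highest there, at 28.1 ± 3.12 CPM against 2.44 ± 1.03 in 482N1 (log2 3.52 ± 0.25, edgeR adjusted p = 2.01e-14). Btg2, an antiproliferative gene, was lower than in 482N1 in E0771-BrM, where it had 10 counts in all (log2 -4.73 ± 0.35, edgeR adjusted p = 8.79e-17).

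A few immediate early genes stood against the low levels of the melanoma line. Dusp2, a nuclear phosphatase of ERK and p38, had 80, 58 and 46 counts in B16F10-BrM and 116, 110 and 105 in E0771-BrM, but 1, 0 and 1 in 482N1. Its ratio to 482N1 was 84.3 in B16F10-BrM (95% exact counting interval 23.0 to 701; edgeR adjusted p = 4.84e-16) and 164 in E0771-BrM (44.9 to 1360; edgeR adjusted p = 3.77e-20). Dusp5 and Dusp2 thus lay on opposite sides in 482N1 and B16F10-BrM. Phlda1, an ERK-induced gene, was higher in B16F10-BrM than in 482N1, at 373 ± 11.4 against 298 ± 7.37 CPM (SD, n = 3 each; log2 0.33 ± 0.07, edgeR adjusted p = 4.01e-05). Nr4a2 was the other of the 3 that were higher.

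**Figure D4:**
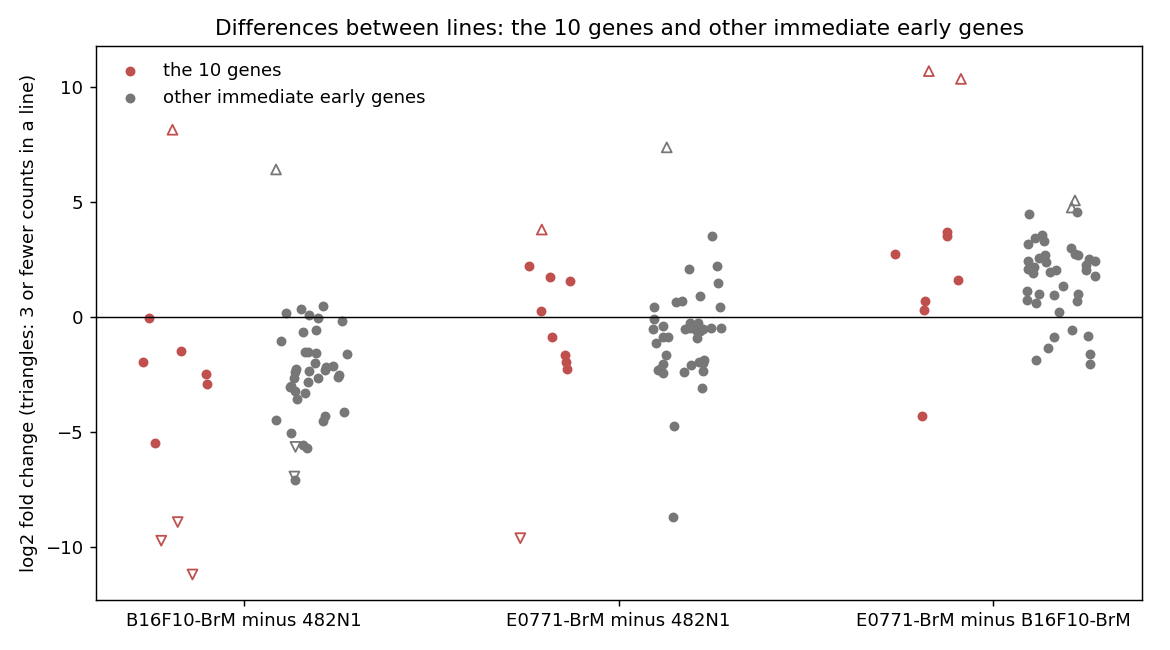
Log2 fold change for 3 pairs of lines, with 1 point per gene, for the 10 genes (red) and the 41 other immediate early genes (grey); triangles mark genes with 3 or fewer counts in a line, drawn at their bound or ratio. Most grey points lie below 0 for B16F10-BrM minus 482N1, where 35 of 41 were called lower, and above 0 for E0771-BrM minus B16F10-BrM, where 33 were called higher.

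Genes known as outputs and feedback inhibitors of ERK (20 of 21 in the table) gave the same order of lines. This list is not independent of the other immediate early genes: both hold Dusp4, Dusp6, Phlda1, Errfi1, Ier3 and Hbegf. In B16F10-BrM against 482N1, 18 were lower and 2 higher (median log2 -2.69), in E0771-BrM against 482N1 15 were lower and 4 higher (median -0.61), and in E0771-BrM against B16F10-BrM 17 were higher and 1 lower (median 2.40). Areg, Ereg and Epha2, which encode 2 EGF receptor ligands and an ephrin receptor, had no count in B16F10-BrM and were at least 647-fold, 174-fold and 142-fold below 482N1 (edgeR adjusted p = 1.28e-30, 4.86e-25 and 8.86e-21). Areg had 74.2 ± 8.39 CPM in 482N1 and 47.5 ± 7.57 in E0771-BrM, and Ereg 19.97 ± 1.83 and 35.9 ± 2.34 (SD, n = 3 each). Dusp6, the cytoplasmic ERK phosphatase, was present in all lines, at 290 ± 14.1, 46.3 ± 4.93 and 92.7 ± 13.3 CPM in 482N1, B16F10-BrM and E0771-BrM. It was lower than in 482N1 in B16F10-BrM (log2 -2.64 ± 0.09, edgeR adjusted p = 4.68e-28) and in E0771-BrM (log2 -1.64 ± 0.09, edgeR adjusted p = 3.00e-21). Etv1, an ETS factor of this output, was higher in B16F10-BrM (log2 1.80 ± 0.27, edgeR adjusted p = 5.48e-08) and E0771-BrM (log2 5.80 ± 0.18, edgeR adjusted p = 9.32e-31) than in 482N1.

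The kinases of the MAP kinase pathways (36 of 40 in the table) were called in both directions. In B16F10-BrM against 482N1, 13 were higher and 12 lower (median log2 0.03), in E0771-BrM against 482N1 10 and 18 (median -0.37), and in E0771-BrM against B16F10-BrM 14 and 16 (median 0.18). Mapk14, which encodes p38 alpha, was higher in B16F10-BrM than in 482N1 (log2 1.59 ± 0.11, edgeR adjusted p = 2.69e-18). Map3k5 (ASK1), a stress kinase upstream of JNK and p38, was lower than in 482N1 in B16F10-BrM (log2 -2.66 ± 0.16, edgeR adjusted p = 1.27e-20) and in E0771-BrM (log2 -5.13 ± 0.21, edgeR adjusted p = 1.51e-26). Map2k3, an activator of p38, was higher in both (log2 1.41 ± 0.10, edgeR adjusted p = 1.31e-17, and 2.19 ± 0.10, edgeR adjusted p = 2.85e-25).

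SRF cofactors that were measured (5 of 6 on the list) differed by less than 1 log2 unit in every comparison. Elk3, an ETS partner of SRF, had 57.4 ± 2.65 CPM in 482N1, 34.0 ± 1.96 in B16F10-BrM, and for E0771-BrM 64.2 ± 2.19 (SD, n = 3 each). It was lower in B16F10-BrM than in 482N1 (log2 -0.76 ± 0.10, edgeR adjusted p = 2.18e-09), and Mrtfa, the actin-regulated cofactor, was lower too (log2 -0.61 ± 0.14, edgeR adjusted p = 0.000119). In E0771-BrM, Elk4 (log2 -0.77 ± 0.13, edgeR adjusted p = 1.32e-06) and Elk1 (log2 -0.57 ± 0.17, edgeR adjusted p = 0.00217) were lower than in 482N1. Srf is not analysed here.

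Other dual-specificity phosphatases (19 of 24 in the table) were split. In B16F10-BrM against 482N1 10 were lower and 5 higher, in E0771-BrM against 482N1 10 were lower and 7 higher, and in E0771-BrM against B16F10-BrM 9 were higher and 6 lower. Dusp3, a small phosphatase of ERK and JNK, was highest in B16F10-BrM, at 186 ± 1.14 CPM against 25.6 ± 2.65 in 482N1 (log2 2.86 ± 0.09, edgeR adjusted p = 2.98e-31). Dusp9, a cytoplasmic ERK phosphatase known from placenta and embryonic stem cells, was highest in E0771-BrM, at 124 ± 3.10 CPM against 3.98 ± 0.718 in 482N1 (log2 4.95 ± 0.14, edgeR adjusted p = 1.27e-33) and 1.0 ± 0.365 in B16F10-BrM (log2 6.88 ± 0.17, edgeR adjusted p = 7.95e-36). Dusp5 was highest in 482N1, Dusp3 in B16F10-BrM and Dusp9 in E0771-BrM.

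Other AP-1 and related bZIP factors (30 of 42 in the table) were also called in both directions. In B16F10-BrM against 482N1, 16 were lower and 9 higher (median log2 -0.36), in E0771-BrM against 482N1 16 and 8 (median -0.23), and in E0771-BrM against B16F10-BrM 9 were lower and 14 higher (median 0.34). Jdp2, a Jun partner that represses AP-1 sites, was at 5.79 ± 1.51 CPM in 482N1, 32.1 ± 3.35 in B16F10-BrM, and for E0771-BrM 55.3 ± 5.65 (SD, n = 3 each). It was higher than in 482N1 in both (log2 2.47 ± 0.16, edgeR adjusted p = 1.18e-19, and 3.26 ± 0.15, edgeR adjusted p = 6.89e-25). Atf4, the amino acid stress factor upstream of Atf3, was higher in E0771-BrM than in 482N1 (1153 ± 115 against 258 ± 32.6 CPM, SD, n = 3 each; log2 2.16 ± 0.09, edgeR adjusted p = 1.97e-22). Atf4 was also higher in B16F10-BrM than in 482N1 (log2 1.17 ± 0.08, edgeR adjusted p = 6.25e-15), where Atf3 had its lowest levels. Maff, a small Maf protein induced with the immediate early genes, was at 90.1 ± 13.4 CPM in 482N1 and 4.51 ± 0.137 in B16F10-BrM (log2 -4.31 ± 0.14, edgeR adjusted p = 1.05e-30). Maf had 2 counts in E0771-BrM, and its ratio was 436 in 482N1 (95% exact counting interval 120 to 3610; edgeR adjusted p = 2.08e-28).

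Genes reported as AP-1 targets (29 of 32 in the table) stood below 482N1 in B16F10-BrM for 26 and above it for 3 (median log2 -3.72). In E0771-BrM 18 were lower and 7 higher than in 482N1 (median -0.86), and 22 were higher and 7 lower than in B16F10-BrM (median 2.70). Mmp3 (stromelysin), a matrix metalloprotease, had 2543, 2684 and 2497 counts in E0771-BrM, 2, 1 and 1 in 482N1 and 0 in B16F10-BrM. Its log2 difference of E0771-BrM from 482N1 was 10.77 (edgeR adjusted p = 2.82e-41). That value rests on the few 482N1 counts, so no SE is given. Ccl2, a monocyte chemokine, had 71.4 ± 13.5 CPM in E0771-BrM, 2.09 ± 0.253 in 482N1 and 0 counts in B16F10-BrM (log2 of E0771-BrM against 482N1 5.08 ± 0.18, edgeR adjusted p = 1.37e-27). Fn1 (fibronectin), by contrast, had 520 ± 42.9 CPM in 482N1, 21.2 ± 2.66 in B16F10-BrM, and for E0771-BrM 0.996 ± 0.386 (log2 of E0771-BrM against 482N1 -9.01 ± 0.15, edgeR adjusted p = 9.63e-43). Mt2, a metallothionein, was 1 of the 3 that were higher in B16F10-BrM than in 482N1 (log2 3.80 ± 0.24, edgeR adjusted p = 3.96e-06), beside Mt1 and the low-count Col1a2. Being on this list says that AP-1 control has been reported in some cell type, not that it holds in these lines.

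**Figure D5:**
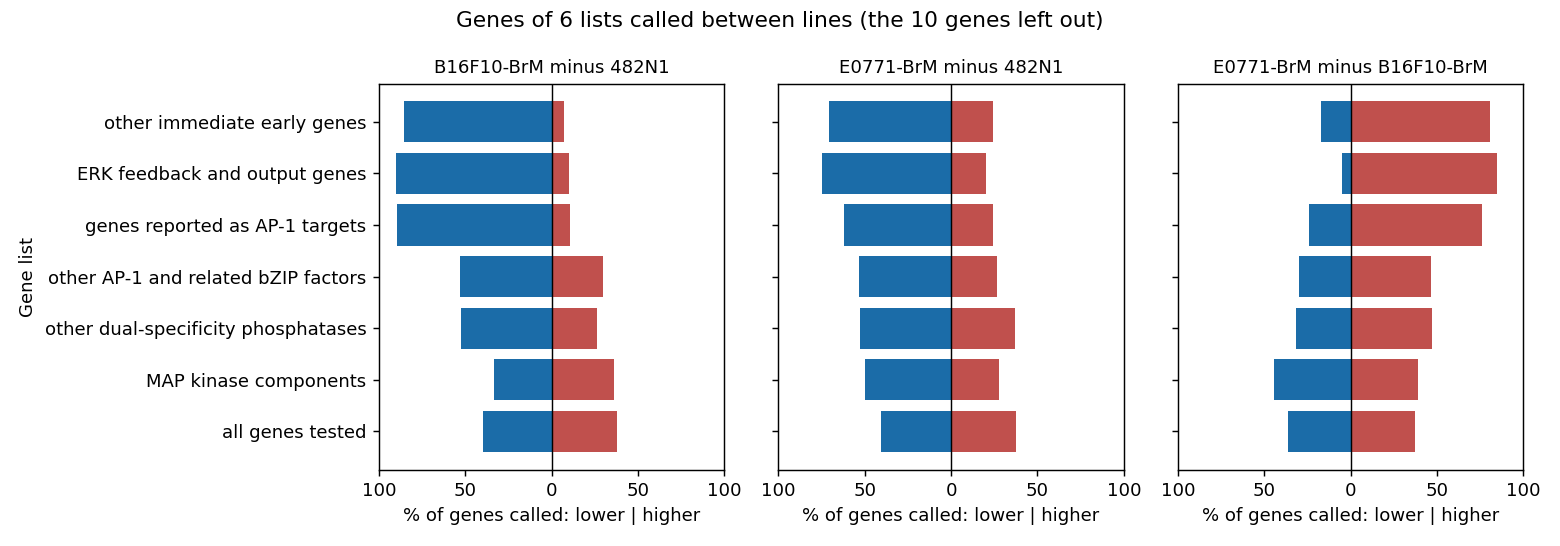
Percentage of the measured genes of 6 lists, and of all genes tested, that were called lower (bars to the left, blue) or higher (bars to the right, red) in the first line named than in the second (edgeR adjusted p below 0.05). The immediate early, ERK output and AP-1 target lists lean to lower in B16F10-BrM against 482N1, while 38.0% of all genes were higher and 39.9% lower.

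The genes with the pattern most like that of each of the 10 across the 9 libraries were ranked by Pearson r of log2 CPM. Gm and Rik genes were left out, and the 6136 candidates spanned at least 1 log2 unit between lines. The libraries form 3 clusters, the lines, so a high r says that the order and relative spacing of 3 lines match. It does not say that the level or the size of the differences match, and it is given with no test. Egr1 was most like Rnf113a2 (r = 0.9997), which also had no count outside 482N1. Fosl1 was most like Dynap (r = 0.9997), with Twist1, a mesenchymal transcription factor, the third (r = 0.9991), and both had 0 CPM in B16F10-BrM. Dusp5 was most like Areg (r = 0.9988), at 74.2, 0 and 47.5 CPM in 482N1, B16F10-BrM and E0771-BrM. Nr4a3 was most like Sdhb (r = 0.9989), at 176, 911 and 354 CPM. Atf3 was most like Cebpb (r = 0.9935), a bZIP factor of inflammation and stress, at 8.67, 4 and 23.0 CPM. The nearest to the others were Ptpn12 for Fosl2 (r = 0.9989), Micall2 for Jun (r = 0.9938), Arhgef28 for Junb (r = 0.9987), S100a16 for Jund (r = 0.9981) and Lrrc8c for Ier2 (r = 0.9942).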

How the data were processed

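The authors deposited 1 table of raw read counts per gene symbol for 9 libraries. Per the submitters' processing notes the tools were Cufflinks 2.2.1, SAMtools 0.1.19, FastQC, Bowtie 1.0.0 and TopHat2 2.0.10, and the build was GRCm39. The counting tool, annotation, strand setting and selection of genes are not given in the sources used here. The 10 genes and all lists were chosen with earlier results of these data known, and alternatives and tests likewise.

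The analysis used edgeR 4.0.16 (R 4.3.3) on the counts: filterByExpr (9 genes removed, 11037 kept), TMM, 1 coefficient per line and robust quasi-likelihood F tests, 2-sided, with Benjamini-Hochberg adjustment and a threshold of 0.05. The common dispersion was 0.0059. The procedure was tested on simulated data. Named genes of each list were up to 3 called in each direction per comparison by absolute log2 fold change, of which the text prints a selection. For a gene with 1 to 3 counts in a line a ratio has an exact binomial interval.

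Alternatives were limma-voom (limma 3.58.1), DESeq2 1.42.0, upper-quartile scaling, DESeq2's size factors within edgeR, other filters, a block for the library letter, leaving out single libraries, fitting 2 lines at a time, and removal of ribosomal RNA genes. A fit that kept library B alone for 482N1 and E0771-BrM, whose melanocyte transcripts were fewest, was added after the data were seen. No 2 libraries were duplicates. Exon lengths are from GENCODE M21 (GRCm38) and promoters from RefSeq.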

Additional observations from a re-analysis of the deposited data

How the results depend on the processing

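Counts of genes and of list members called stayed within 1.5 times the main count in 510 of 513 results under an alternative. The exceptions were all of the SRF cofactor list, with 4 called of 5 in the main fit: with each library left out, between 2 and 4 were called in B16F10-BrM against 482N1 (2 without library B of 482N1 or without library B of B16F10-BrM), and 1 was called in E0771-BrM against 482N1 when library B alone stood for 482N1 and for E0771-BrM. That last setting, which takes the spread from B16F10-BrM alone, called 34, 35 and 39 of 41 other immediate early genes in the 3 comparisons, against 38, 39 and 40, and Nfil3, in B16F10-BrM against 482N1, went from -0.52 to a log2 difference of 0.31 (adjusted p = 0.348). With the library letter as a replicate block, 8595, 8623 and 8162 genes were called in the 3 comparisons, against 8592, 8622 and 8131. Same-letter libraries of different lines correlated at -0.0128 to 0.0868 in their deviations, and different-letter libraries at -0.0758 to 0.0375. Between B16F10-BrM and E0771-BrM, same letters gave 0.0241 to 0.0868 and different letters -0.071 to 0.00716. The labels do not say what a letter marks, so the letters were not taken as pairs in the main fit. Dct was lowest in library B of both 482N1 and E0771-BrM. In library B of 482N1, B16F10-BrM and E0771-BrM, 13 of 40, 15 of 35 and 7 of 38 other immediate early genes were above their line's mean. Of the genes described here with a mean of at least 10 counts, 2 of 9, 4 of 7 and 3 of 9 were above it. Whether libraries of the same letter share a feature was not tested.

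No log2 difference of the 10 genes changed sign where it exceeded its SE; Jun in B16F10-BrM against 482N1 ran from -0.16 to 0.09. Values moved beyond the spread within lines in 11 of 399 cases, all with a library left out or with only library B: among them Ier2 in E0771-BrM against B16F10-BrM ran from 0.23 to 0.86, Dusp5 in E0771-BrM against 482N1 from -1.18 to -0.76 and Nr4a3 in E0771-BrM against B16F10-BrM from -4.52 to -4.00. With 3 libraries per line, genes at a few counts (Dusp5, Nr4a3 and Atf3 in their low lines) are limited by depth.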
